A study of Mus musculus with 16 samples.

Results

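Plac8, Adam8, Deptor, Lgmn and St3gal6 were followed as 5 genes that earlier results of these data had grouped as shared by effector cells of lung and mesenteric lymph node (MLN). They are 5 of the 31053 genes of the lung and MLN matrices and 5 of the 32285 genes of the matrix of mediastinal lymph node (medLN) and MLN, found by symbol, and each symbol matched 1 row in every matrix. Plac8 encodes a small cysteine-rich protein, and Adam8 a transmembrane disintegrin and metalloprotease that sheds surface proteins. Deptor encodes an inhibitor that binds the kinase mTOR, Lgmn (legumain) a lysosomal asparaginyl endopeptidase, and St3gal6 a Golgi sialyltransferase that contributes to selectin ligands. Because the lung and MLN cells chose these genes, their values in those libraries are a description with no test. Tests were run in the medLN and MLN cells, which came from other mice, although the node differences of Plac8 and Adam8 there were already known.

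All cells came from 4get/C57BL/6 mice, in which an IL-4eGFP reporter marks cells that transcribe Il4, 10 days after subcutaneous infection with 500 larvae of Nippostrongylus brasiliensis (Nb). No uninfected animals were analysed here. In the first run, IL-4eGFP+CD4+ cells of lung and MLN of 2 mice aged 13 weeks gave 4 libraries, and the perfused lungs still held some intravascular cells. In the second run, CD4+ cells of medLN and MLN of 2 mice aged 10 weeks were sorted as positive or negative for IL-4eGFP, and hashtag antibodies marked mouse and node within 1 library per gate. A difference between gates therefore cannot be told apart from a difference between those 2 libraries.

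Th2 cells arise from naive CD4 T cells in lymph nodes and make IL-4, IL-5 and IL-13 in the tissues that worms pass through. Il1rl1 encodes ST2, the receptor chain for the alarmin IL-33 that marks effector Th2 cells, Ccr9 encodes a receptor for the gut chemokine CCL25, and Cxcr5 encodes the receptor that draws T cells to B cell follicles. Cells were therefore also separated by whether a UMI (unique molecular identifier, 1 captured transcript) of these receptors was present.

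In mm10 (GRCm38), Plac8 lies on chr5:100553725-100572245, Adam8 on chr7:139978932-139992562, Lgmn on chr12:102394084-102439813 and St3gal6 on chr16:58468125-58524243, all on the minus strand, and Deptor on chr15:55112317-55259271 on the plus strand. Each is annotated as protein coding. Adam8 overlaps Gm16201 on the opposite strand and Mir7062 on its own, Deptor overlaps Gm9920 and St3gal6 overlaps Dcbld2, both on the opposite strand.

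The 250 bases before the RefSeq start of 4 of the 5 genes are shown (GRCm38.p6, minus strand, written 5′ to 3′ along the gene). The letters next to genes found in the same cells can so be compared. For Plac8 and Lgmn this start lies inside the gene span given above, so the last bases shown overlap that span. Capitals mark matches to TGTGGT (RUNX), GGGCGG (Sp/KLF) or GATAA (GATA factors) on either strand, so that ACCACA stands for the RUNX letters, CCGCCC for the Sp/KLF letters and TTATC for the GATA letters of the other strand. Deptor had no entry in the table used.
Plac8, chr5:100572206-100572455: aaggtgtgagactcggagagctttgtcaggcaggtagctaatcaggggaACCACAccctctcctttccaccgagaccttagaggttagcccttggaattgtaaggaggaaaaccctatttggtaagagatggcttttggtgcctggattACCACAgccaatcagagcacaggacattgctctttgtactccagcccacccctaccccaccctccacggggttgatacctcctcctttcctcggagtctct
Adam8, chr7:139992563-139992812: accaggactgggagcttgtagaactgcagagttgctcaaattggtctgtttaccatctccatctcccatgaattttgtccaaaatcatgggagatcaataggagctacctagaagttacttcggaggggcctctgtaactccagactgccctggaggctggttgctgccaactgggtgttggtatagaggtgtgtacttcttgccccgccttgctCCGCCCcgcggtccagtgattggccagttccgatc
Lgmn, chr12:102439729-102439978: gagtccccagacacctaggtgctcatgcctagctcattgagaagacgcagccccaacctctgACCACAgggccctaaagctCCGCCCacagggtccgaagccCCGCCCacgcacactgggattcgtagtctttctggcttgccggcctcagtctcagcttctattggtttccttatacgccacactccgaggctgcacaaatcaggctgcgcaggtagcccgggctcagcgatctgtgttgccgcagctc
St3gal6, chr16:58524254-58524503: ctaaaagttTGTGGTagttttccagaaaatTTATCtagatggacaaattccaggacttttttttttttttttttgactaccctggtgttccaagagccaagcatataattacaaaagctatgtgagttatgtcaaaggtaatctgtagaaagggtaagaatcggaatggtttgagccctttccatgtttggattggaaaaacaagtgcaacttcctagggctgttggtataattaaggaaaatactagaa

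Counted in windows of 250 bases before to 50 bases after the start, TGTGGT was found in 3 of the 4 genes, 3 times in Plac8 (201 and 101 bases before and 26 bases after the start), 1 time in Lgmn (188 bases before) and 1 time in St3gal6 (241 bases before), while 16.8% of all 32851 windows held it. GGGCGG was found in Adam8 (35 bases before) and 3 times in Lgmn (169 and 148 bases before, 10 bases after), and 35.7% of all windows held it. GATAA was found in St3gal6 alone (220 bases before), against 25.4% of all windows. TTCNNNGAA (STAT5), the STAT6 motif, in which 1 more base separates the same arms, and TGANTCA (AP-1), held by 8.30%, 6.95% and 7.81% of windows, had no match in these 4 windows. No match overlapped another, and no motif was found in all 4 windows. These are the windows nearest to each gene's annotated start. The windows of second starts, which are not shown, held the STAT6 motif in Plac8, TGTGGT 2 times in Lgmn and GGGCGG 5 times in St3gal6.

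The first run kept 4714 cells, 416 to 2462 per library, with median depths of 4971 to 6910 UMIs, and the second 16748 cells, 1992 to 2249 per hashtag sample, with medians of 3165.5 to 3666.5 UMIs. CD4 T cell genes (Cd3e, Cd3d, Cd4) were present in all 12 samples. The summed level of 12 myeloid genes was 10.6 to 14.3 CPM (UMI counts scaled by the total UMIs of the sample) in lung, 51.6 to 87.8 in first-run MLN, 53.8 to 91.7 in IL-4eGFP+ medLN, 55.2 to 171 in IL-4eGFP+ MLN and 24.9 to 48.6 in the IL-4eGFP- samples, and granulocyte genes summed to at most 3.35 CPM. Levels of 5 B cell genes, Ighm included, summed to 93.4 to 126 CPM in lung and 238 to 262 CPM in first-run MLN. In the second run they summed to 148 to 167 CPM in IL-4eGFP+ medLN and 220 to 238 CPM in IL-4eGFP+ MLN. The IL-4eGFP- samples held 197 to 229 CPM. First-run libraries shared 0 to 8 cell barcodes and the libraries of the 2 gates 147. Levels are sums over the cells of a sample, so more cells with a transcript and more transcripts per cell are separated below by giving the share of cells as well.

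Plac8 was the member whose level differed most between lung and MLN on this scale. It measured 776 and 524 CPM in the 2 lung libraries and 146 and 113 CPM in the 2 first-run MLN libraries. In IL-4eGFP+ cells of the second run it measured 118 and 94.1 CPM in medLN and 205 and 318 CPM in MLN, and in IL-4eGFP- cells 14.7 and 6.36 CPM in medLN and 4.21 and 7.99 CPM in MLN. Lung was above every node sample, IL-4eGFP+ MLN was above IL-4eGFP+ medLN in both mice, and every IL-4eGFP- sample was below every IL-4eGFP+ sample. Plac8 UMIs were found in 57.2% and 48.1% of lung cells, 9.14% and 10.1% of first-run MLN cells, 7.24% and 7.57% of IL-4eGFP+ medLN cells, 9.69% and 15.7% of IL-4eGFP+ MLN cells, and 0.923% and 0.861% of IL-4eGFP- medLN and 0.622% and 1.38% of IL-4eGFP- MLN cells. Exact Clopper-Pearson 95% intervals, which cover counting error only, ran from 54.2% to 60.2% for Lung 1 and from 8.03% to 10.3% for MLN 1. A cell with any Plac8 UMI held 10.7 and 7.33 of them on average in lung and 9.45 and 6.66 in first-run MLN, so the organs differed mainly in how many cells carried the transcript. After every cell was thinned to 2000 UMIs, 45.7% and 35.5% of lung cells and 6.97% and 7.13% of first-run MLN cells held a Plac8 UMI. The highest 1% of cells held 9.52% and 8.74% of all Plac8 UMIs in lung but 42.9% and 37.9% in MLN, so MLN Plac8 was concentrated in few cells. Cells with a UMI of a myeloid, granulocyte or B cell marker other than Ighm were 6.09% and 9.95% of first-run MLN cells. They held 24.5% and 15.8% of the Plac8 UMIs there. In lung such cells were 3.51% and 2.64% and held 4.39% and 2.80%.

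Adam8 was likewise highest in lung and higher in IL-4eGFP+ MLN than in IL-4eGFP+ medLN. It measured 93.8 and 61.5 CPM in lung, 19.5 and 17.9 CPM in first-run MLN, 10.9 and 9.06 CPM in IL-4eGFP+ medLN and 23.1 and 33.2 CPM in IL-4eGFP+ MLN. The IL-4eGFP- samples held 0.905 and 1.46 CPM in medLN and 0.867 and 1.14 CPM in MLN, and every one of them was below every IL-4eGFP+ sample. Adam8 UMIs were present in 37.5% and 25.7% of lung cells, 6.54% and 6.37% of first-run MLN cells, 3.30% and 3.12% of IL-4eGFP+ medLN cells and 6.48% and 9.23% of IL-4eGFP+ MLN cells, against 0.185% to 0.383% of IL-4eGFP- cells.

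Deptor ran in the other direction between the organs. It measured 4.11 and 2.86 CPM in lung, 11.6 and 15 CPM in first-run MLN, 1.58 and 2.74 CPM in IL-4eGFP+ medLN and 7.82 and 15.2 CPM in IL-4eGFP+ MLN, so lung was below first-run MLN in both mice and medLN was below MLN. IL-4eGFP- samples held 3 and 2 UMIs in medLN and 3 and 1 UMI in MLN, too few for a fold. Deptor was a rare transcript, found in 2.68% and 1.68% of lung cells, 3.66% and 5.04% of first-run MLN cells, 0.583% and 0.941% of IL-4eGFP+ medLN cells and 2.61% and 4.94% of IL-4eGFP+ MLN cells, so that its share in lung went against its description as a gene shared by effector cells of both organs.

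Lgmn differed less between the organs. It measured 116 and 75 CPM in lung, 68.1 and 52.3 CPM in first-run MLN, 45.7 and 46.9 CPM in IL-4eGFP+ medLN and 61.6 and 114 CPM in IL-4eGFP+ MLN, with 9.05 and 10.9 CPM in medLN and 6.69 and 11 CPM in MLN in IL-4eGFP- cells. Its UMIs were present in 37.2% and 26% of lung cells, 19.7% and 14.6% of first-run MLN cells, 13.8% and 15.2% of IL-4eGFP+ medLN cells and 14.4% and 21% of IL-4eGFP+ MLN cells, and in 2.05% to 3.40% of IL-4eGFP- cells. The 2 lung libraries differed from each other by more than the lower one did from MLN 1. St3gal6 measured 56.8 and 79.7 CPM in lung, 44.2 and 52 CPM in first-run MLN, 12.2 and 8.85 CPM in IL-4eGFP+ medLN and 34.7 and 28.4 CPM in IL-4eGFP+ MLN. IL-4eGFP- samples held 11.6 and 9.14 CPM in medLN and 13.3 and 9.77 CPM in MLN, which overlapped the IL-4eGFP+ medLN samples. St3gal6 UMIs were present in 20.6% and 25.5% of lung cells, 11.8% and 13% of first-run MLN cells, 3.50% and 3.17% of IL-4eGFP+ medLN cells and 8.38% and 7.73% of IL-4eGFP+ MLN cells, and in 3.20% to 4.45% of IL-4eGFP- cells. A cell with any St3gal6 UMI held 1.91 and 1.95 in IL-4eGFP+ MLN, above the 1.03 to 1.07 of the IL-4eGFP- samples.

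**Figure D1:**
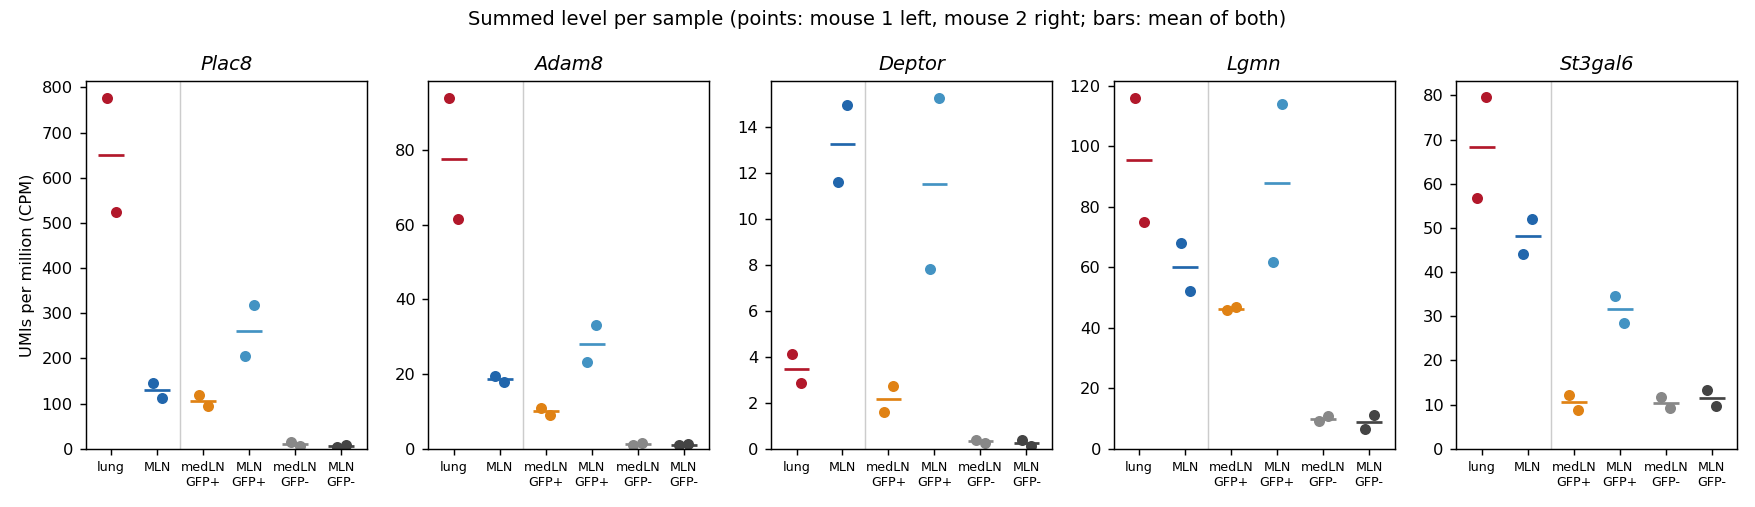
CPM of each member (vertical axes, 1 panel a gene) in the 12 samples of 6 groups, with mouse 1 on the left, mouse 2 on the right and a bar at each group's mean. Plac8 and Adam8 are highest in lung, Deptor is highest in MLN, and St3gal6 in IL-4eGFP+ medLN overlaps the IL-4eGFP- samples.

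Between lung and first-run MLN, the ratio of mean CPM was 5.01 for Plac8 (lung 649.6 ± 178, MLN 129.7 ± 23.7, SD, n = 2), 4.16 for Adam8, 1.59 for Lgmn, 1.42 for St3gal6 and 0.263 for Deptor. Since 31% of the 10587 genes tested passed a threshold of 0.05 in this comparison and the libraries chose the members, these values are description only. Fitted log2 differences of lung minus MLN were 2.46 (SE 0.23) for Plac8, 2.22 (SE 0.22) for Adam8, 0.83 (SE 0.22) for Lgmn, 0.62 (SE 0.15) for St3gal6 and -1.63 (SE 0.29) for Deptor. Without Lung 1 the difference of Lgmn was 0.35 and without Lung 2 it was 1.12.

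Cells with an Il1rl1 UMI were 70.0% and 53.8% of lung cells but 3.29% and 4.91% of first-run MLN cells, and comparing only these cells changed the picture. Plac8 measured 949 and 747 CPM in Il1rl1+ lung cells and 1063 and 813 CPM in Il1rl1+ MLN cells, a log2 difference of -0.09 (SE 0.19). Adam8 measured 106 and 76.2 CPM in lung and 127 and 91.1 CPM in MLN, a log2 difference of -0.20 (SE 0.24). The lung and MLN values of Plac8 and of Adam8 overlapped in these cells. In cells with no Il1rl1 UMI, Plac8 measured 325 and 272 CPM in lung and 104 and 61.4 CPM in MLN, and Adam8 62.5 and 44.9 CPM in lung and 14.6 and 12.5 CPM in MLN.

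Deptor, Lgmn and St3gal6 were higher in the Il1rl1+ cells of MLN. Deptor measured 4.40 and 4.72 CPM in Il1rl1+ lung cells against 105 and 107 CPM in Il1rl1+ MLN cells, a log2 difference of -4.46 (SE 0.28). Lgmn measured 134 and 112 CPM against 435 and 254 CPM (-1.45, SE 0.23). St3gal6 measured 62.9 and 93 CPM against 298 and 269.9 CPM (-1.87, SE 0.19). The MLN values of these 3 genes rest on 81 and 37 cells.

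The medLN drains the lung and the MLN the gut. All 5 members were lower in IL-4eGFP+ cells of medLN than of MLN, and 4 of them passed the threshold. The differences of Plac8 and Adam8 were known when the members were chosen, so their calls are not independent of that choice. Of 11262 genes, 1.28% were called in either direction and 0.604% lower in medLN, by the quasi-likelihood test of edgeR. That test, adjusted by Benjamini-Hochberg across every gene in the fit, is the source of each adjusted p given here except where DESeq2 is named. St3gal6 fell by 1.59 on the log2 scale (SE 0.16, edgeR adjusted p = 0.00528) and Deptor by 2.44 (SE 0.39, edgeR adjusted p = 0.0306). Adam8 fell by 1.51 (SE 0.19, edgeR adjusted p = 0.0122) and Plac8 by 1.31 (SE 0.19, edgeR adjusted p = 0.0204). Lgmn gave -0.94 (SE 0.24, edgeR adjusted p = 0.134). The MLN over medLN ratios of mean CPM were 2.46 for Plac8, 2.82 for Adam8, 5.34 for Deptor, 1.90 for Lgmn and 3.00 for St3gal6.

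St3gal6 passed in all 15 settings tried, the highest adjusted p being 0.0427 without medLN 2. The other calls were lost in some settings. Without the filter on low counts the adjusted p was 0.0798 for Plac8 and 0.0907 for Deptor, and without medLN 1 or medLN 2 the adjusted p was 0.112 and 0.202 for Plac8, 0.0871 and 0.127 for Adam8 and 0.225 and 0.134 for Deptor, with 0.0687 for Deptor without MLN 2. Cells with a UMI of a myeloid, granulocyte or B cell marker other than Ighm held 9.62% to 16.5% of the Plac8 UMIs of these samples, and without those cells the difference of Plac8 was -1.32 (edgeR adjusted p = 0.00133). Lgmn gave -1.32 without MLN 1, and it passed without cells holding a marker UMI, Ighm included (-1.11, edgeR adjusted p = 0.00772). With Ighm included, that setting left out 37.2% and 41.4% of IL-4eGFP+ medLN cells.

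Ccr9+ cells were 2.33% and 2.03% of IL-4eGFP+ medLN cells and 9.24% and 14.3% of IL-4eGFP+ MLN cells. Among cells with no Ccr9 UMI the log2 difference was -0.91 for Plac8 (edgeR adjusted p = 0.00412), -2.22 for Deptor (edgeR adjusted p = 0.00571), -1.05 for St3gal6 (edgeR adjusted p = 0.0334) and -0.76 for Adam8 (edgeR adjusted p = 0.0496). Lgmn did not pass (-0.31, edgeR adjusted p = 0.414). Il1rl1+ cells were 4.52% and 5.45% of medLN cells and 3.51% and 6.24% of MLN cells. Among them, from MLN to medLN, Lgmn fell by 2.09 (edgeR adjusted p = 1.42e-05), St3gal6 by 2.097 (edgeR adjusted p = 0.00221), Deptor by 2.53 (edgeR adjusted p = 0.00152), Adam8 by 1.75 (edgeR adjusted p = 0.000693) and Plac8 by 1.20 (edgeR adjusted p = 0.000212). Deptor held 7 and 13 UMIs in the Il1rl1+ medLN cells and passed the count filter of that fit through the MLN samples. No support is drawn from its call there. Of all genes, 425 were called without Ccr9+ cells and 85 with Il1rl1+ cells only, against 144 with all cells. Adjusted p-values of these fits are therefore not comparable with each other.

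IL-4eGFP- cells, CD4 T cells outside the reporter gate, showed no called node difference for the 3 members that could be tested. Plac8 gave 0.74 (medLN minus MLN, log2, SE 0.36, edgeR adjusted p = 0.854), Lgmn 0.11 (edgeR adjusted p = 0.995) and St3gal6 -0.20 (edgeR adjusted p = 0.978), beside 0.178% of 10683 genes called (19 genes, or 65 with mouse as a block), and Adam8 and Deptor were below the count filter. Plac8 passed without medLN 2 (1.22, edgeR adjusted p = 0.000271) and without MLN 2 (1.29, edgeR adjusted p = 0.000702). In medLN 1 of this gate 92 of the 114 Plac8 UMIs lay in 61 cells with a UMI of a myeloid, granulocyte or B cell marker other than Ighm, and the CPM of the other cells was 2.98 and 3.48 in medLN and 2.47 and 6.43 in MLN. The node difference was then -0.51.

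Plac8, Lgmn and St3gal6 were called higher in IL-4eGFP+ than in IL-4eGFP- cells, beside 31.8% of 11534 genes called higher and 62.1% in either direction. For St3gal6 this held in MLN, while its medLN samples overlapped between the gates. Plac8 rose by 4.19 on the log2 scale (SE 0.24, edgeR adjusted p = 6.97e-08) and Lgmn by 2.58 (SE 0.21, edgeR adjusted p = 1.36e-06). Adam8 gave 3.75 (SE 0.22, edgeR adjusted p = 1.05e-07). Deptor passed (edgeR adjusted p = 3.09e-05), with a size that rests on 1 to 3 UMIs per IL-4eGFP- sample. Adam8 and Deptor were below the count filter in IL-4eGFP- cells alone and entered this fit through the IL-4eGFP+ samples. Their direction was therefore set by the filter, and no support is drawn from their calls. St3gal6 rose by 0.54 (SE 0.14, edgeR adjusted p = 0.00538), with group means of 10.5 ± 2.37 and 10.4 ± 1.76 CPM in medLN (SD, n = 2) and 31.5 ± 4.43 and 11.5 ± 2.47 CPM in MLN, so that IL-4eGFP+ over IL-4eGFP- was 1.01 in medLN. With every cell holding a marker UMI left out, Ighm included, St3gal6 gave 0.40 (edgeR adjusted p = 0.0805).

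The test of whether the node difference itself differed between the gates called no member, beside 0.156% of 11534 genes (18 genes, or 44 with mouse as a block). The adjusted p was 0.141 for St3gal6 (-1.38), 0.344 for Plac8 (-2.05), 0.549 for Adam8 (-1.68), 0.685 for Lgmn (-1.05) and 0.737 for Deptor (-2.74). In this fit too Adam8 and Deptor passed the count filter through the IL-4eGFP+ samples, and their sizes rest on few IL-4eGFP- UMIs. With mouse as a block St3gal6 passed (-1.39, edgeR adjusted p = 0.00799). Without the filter on low counts both St3gal6 (-1.38, edgeR adjusted p = 0.00356) and Plac8 (-2.05, edgeR adjusted p = 0.00407) passed, and over 14 alternatives the Plac8 value ran from -2.61 to -0.82.

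**Figure D2:**
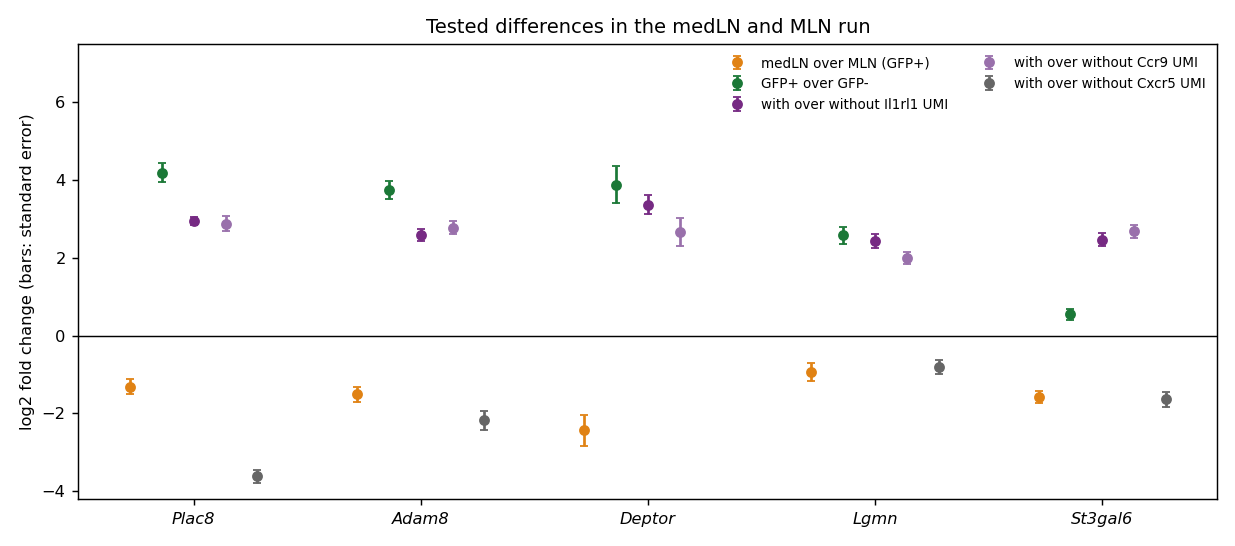
Fitted log2 differences (vertical axis, points, with SE as bars) of the members in IL-4eGFP+ medLN over MLN, IL-4eGFP+ over IL-4eGFP-, and cells with over without an Il1rl1, Ccr9 or Cxcr5 UMI. All 5 members lie below 0 for medLN over MLN and above 0 for Il1rl1 and Ccr9, Deptor has no point for Cxcr5, and its gate point rests on 1 to 3 UMIs per IL-4eGFP- sample. Adam8 and Deptor passed the count filter of the gate fit through the IL-4eGFP+ samples. Deptor passed that of the Il1rl1 and Ccr9 fits through the cells with the receptor UMI.

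Within the 4 IL-4eGFP+ samples, cells with an Il1rl1 UMI (93 and 110 cells of medLN, 70 and 125 of MLN) held more of every member than the other cells of the same sample, beside 13.7% of 10272 genes called higher and 24.9% called in either direction. Plac8 measured 627 against 77.7 CPM and 482 against 54.2 CPM in medLN, and 1365 against 141 CPM and 1136 against 234 CPM in MLN. Deptor measured 9.97 against 0.908 and 14.7 against 1.51 CPM in medLN, and 51.9 against 5.39 and 83.9 against 8.19 CPM in MLN. In MLN, Adam8 measured 114 against 18.1 and 135 against 22.7 CPM. For all 5 members the cells with Il1rl1 were above the others in 4 of 4 samples. The fitted log2 differences were 2.95 for Plac8 (SE 0.10, edgeR adjusted p = 2.09e-18), 2.58 for Adam8 (SE 0.15, edgeR adjusted p = 1.44e-13), 3.37 for Deptor (SE 0.23, edgeR adjusted p = 4.26e-12), 2.44 for Lgmn (SE 0.18, edgeR adjusted p = 1.31e-11) and 2.46 for St3gal6 (SE 0.16, edgeR adjusted p = 1.58e-12). Deptor passed the count filter of this fit through the sums of Il1rl1+ cells, which held 7 and 13 Deptor UMIs in medLN. Its direction was therefore set by the filter, and no support is drawn from its call. Cells with Il1rl1 were deeper, with medians of 5016.5 to 6364 against 3118 to 3595 UMIs. With all cells thinned to 2000 UMIs the difference of Plac8 was 2.98. These few cells held 39.1% and 47.8% of the Plac8 UMIs of medLN and 34.8% and 33.2% of those of MLN.

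Lgmn was the 1 member whose Il1rl1 difference was called as different between the nodes. In medLN it measured 95.5 against 41.8 and 126 against 38.7 CPM, and in MLN 403 against 42.8 and 523 against 72.1 CPM. The medLN difference was smaller by 1.53 on the log2 scale (SE 0.18, edgeR adjusted p = 3.11e-07, with 0.518% of 10801 genes called), a test added after the data were seen. Without the sample block its adjusted p was 0.216. The other members gave 0.35 for Plac8 (edgeR adjusted p = 0.589), -0.21 for Adam8 (edgeR adjusted p = 0.945), 0.01 for Deptor (edgeR adjusted p = 1) and -0.60 for St3gal6 (edgeR adjusted p = 0.660). St3gal6 measured 39.9 and 28.2 CPM in Il1rl1+ medLN cells and 191 and 106 CPM in Il1rl1+ MLN cells.

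Cells with a Ccr9 UMI also held more of all 5 members, beside 3.01% of 10349 genes called higher and 5% in either direction. Plac8 measured 994 against 97.2 and 974 against 75.6 CPM in medLN and 683 against 144 and 837 against 177 CPM in MLN. Deptor held 4 and 9 UMIs in the Ccr9+ medLN cells and passed the count filter of this fit through the Ccr9+ sums. No support is drawn from its call. The fitted differences were 2.87 for Plac8 (edgeR adjusted p = 5.1e-08), 2.77 for Adam8 (edgeR adjusted p = 2.51e-08), 2.69 for St3gal6 (edgeR adjusted p = 2.51e-08), 2.67 for Deptor (edgeR adjusted p = 0.000107) and 2.00 for Lgmn (edgeR adjusted p = 2.61e-07). The Ccr9 difference of Plac8 was larger in medLN by 1.25 (SE 0.16, edgeR adjusted p = 3.16e-11, with 2.44% of 10848 genes called), a test added after the data were seen. It lost the call with cells thinned to 2000 UMIs (0.66, edgeR adjusted p = 0.341) and without cells holding a marker UMI, Ighm included (1.09, edgeR adjusted p = 0.266). Ccr9+ cells held 37.7% and 56.1% of the Plac8 UMIs of IL-4eGFP+ MLN and 19.7% and 21.4% of those of medLN.

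Cells with UMIs of both receptors held more Plac8 than cells with neither or with Ccr9 alone in all 8 of these samples, and more than cells with Il1rl1 alone in 7 of 8. The exception was IL-4eGFP+ MLN 1, with 1365 CPM in Il1rl1-only and 1364 CPM in double-positive cells. The double-positive cells numbered 10 and 9 in medLN and 38 and 73 in IL-4eGFP+ MLN, and held 2095 and 2456 CPM in medLN and 1364 and 1256 CPM in MLN. Cells with neither held 65.9 and 49.3 CPM in medLN and 108 and 143 CPM in MLN. In the first run the double-positive cells held 1238 and 945 CPM in lung and 1206 and 1172 CPM in MLN, against 303 and 274 and 54.4 and 43 CPM in cells with neither. The medLN values rest on the fewest cells.

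**Figure D3:**
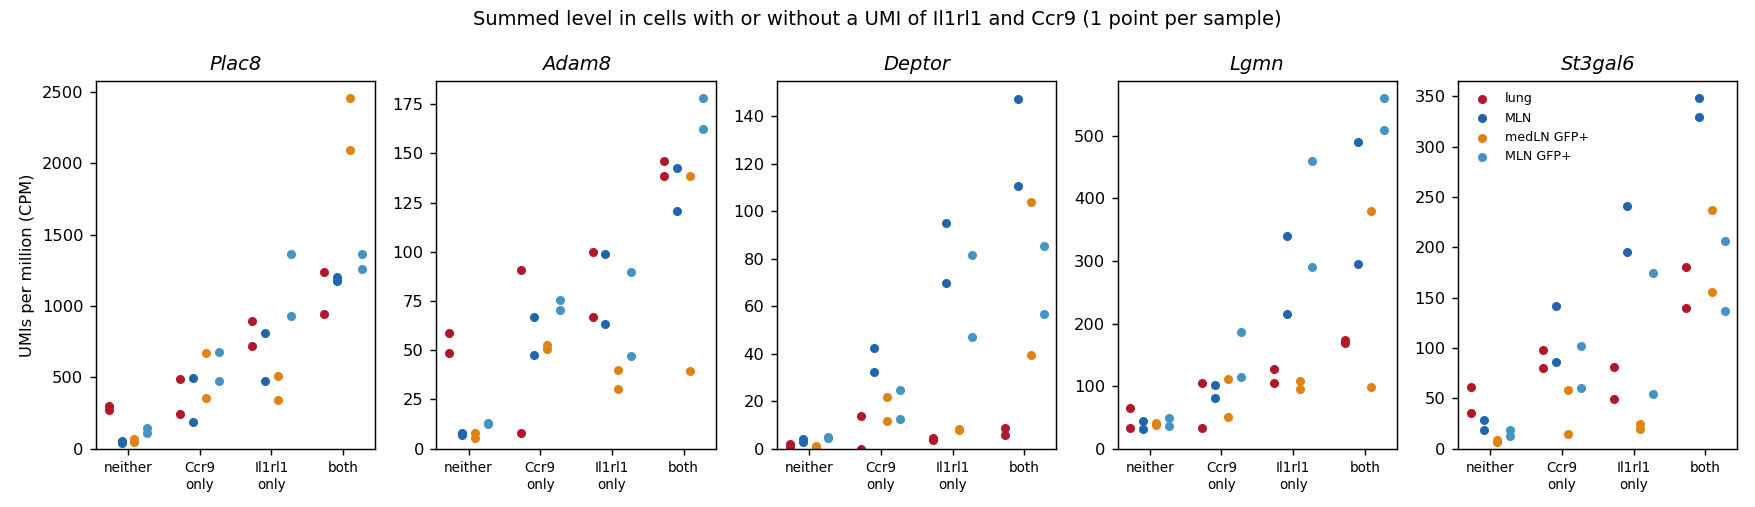
CPM of each member (vertical axes) in cells with neither receptor UMI, Ccr9 alone, Il1rl1 alone or both, with 1 point per sample for lung, first-run MLN, IL-4eGFP+ medLN and IL-4eGFP+ MLN. Plac8 in cells with neither lies at 43 to 303 CPM, below every double-positive value of its own sample.

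Plac8, Adam8, Lgmn and St3gal6 were called lower in cells with a Cxcr5 UMI, beside 14% of 10341 genes (25.5% in either direction). Deptor was below the count filter. Plac8, Adam8 and St3gal6 were lower in every IL-4eGFP+ sample, whereas Lgmn was lower in MLN and slightly higher in medLN. Plac8 measured 6.64 and 1.11 CPM in Cxcr5+ medLN cells and 12.1 and 54 CPM in Cxcr5+ MLN cells of the second run, and 9.94 and 9.26 CPM in Cxcr5+ cells of first-run MLN. A Plac8 UMI was present in 1.31% and 2.57% of those first-run Cxcr5+ cells, an Adam8 UMI in 2.61% and 1.47% and a Deptor UMI in 0.402% and 0.735%, at median depths of 5207 and 5261 UMIs against 4808.5 and 4862 in the other cells. In the IL-4eGFP+ samples Plac8 was present in 0.239% to 3.37%, Adam8 in 0.478% to 2.95% and Deptor in 0% to 0.421% of Cxcr5+ cells, at medians of 3236 to 4011 against 3148 to 3586 UMIs. Free RNA of a library reaches all its cells, so apart from counting error these shares are upper limits of that background for the 3 genes. In lung only 35 and 4 cells held Cxcr5, of which 2.86% and 0% held Plac8. Lgmn was found in 12.5% to 19.0% of the Cxcr5+ node cells. No such limit was drawn for Lgmn or St3gal6, and the background of their co-detection was not measured. Cells with a UMI of Zbtb16 or Foxp3, described below, had low shares in the IL-4eGFP+ samples. Lgmn was present in 0% of 16 and 9.09% of 11 Zbtb16+ medLN cells and 0% of 20 and 0% of 17 in MLN. St3gal6 was present in 4.76% of 21 and 0% of 26 Foxp3+ medLN cells and 1.85% of 54 and 0% of 65 in MLN. These shares rest on few cells. The fitted Cxcr5 differences were -3.62 for Plac8 (SE 0.17, edgeR adjusted p = 9.43e-14), -2.18 for Adam8 (edgeR adjusted p = 2.66e-07), -1.65 for St3gal6 (edgeR adjusted p = 2.12e-07) and -0.81 for Lgmn (edgeR adjusted p = 0.00123). Cxcr5+ medLN cells held few UMIs, 9 and 2 of Plac8, 13 and 2 of Adam8 and 2 and 6 of St3gal6. For these genes the other cells alone met the count filter. In medLN 1 Adam8 measured 9.59 against 11.2 CPM. Lgmn lost its call without MLN 2 (edgeR adjusted p = 0.142) and with DESeq2 (adjusted p = 0.502), and without the sample block both Lgmn (edgeR adjusted p = 0.144) and St3gal6 (-1.50, edgeR adjusted p = 0.0839) lost theirs.

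Lgmn again depended on the node. It measured 48.7 against 45.3 and 53.3 against 45.4 CPM in Cxcr5+ and other cells of medLN, and 34.7 against 70.6 and 44.5 against 136 CPM in MLN. The difference between the nodes was 1.55 (SE 0.19, edgeR adjusted p = 4.93e-08, with 0.528% of 10802 genes called), and the edgeR adjusted p was 0.631 without the sample block and 0.751 with thinned cells. This test too was added after the data were seen. Plac8 gave -1.82 (edgeR adjusted p = 0.0319), and -0.70 (edgeR adjusted p = 0.926) without MLN 2 and -1.03 (edgeR adjusted p = 0.471) without medLN 2. The Plac8 call was lost in 8 of 11 alternatives.

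Members were found in the same cells more often than independent detection would give, which is a description, since cells of 1 sample are not replicates and depth is shared between genes of a cell. Plac8 and Adam8 were both present in 108 first-run MLN cells, against 19.6 expected, a ratio of 5.52, and in 67 IL-4eGFP+ medLN cells against 9.70, a ratio of 6.91. The ratio was 5.20 in IL-4eGFP+ MLN and 1.23 in lung, where 349 cells held both against 284 expected. Lung, where more than 1 cell in 4 carried each transcript, had the lowest ratio. The ratio cannot exceed the inverse of the share of cells with the commoner gene. Its ceiling was therefore lower in lung, where 57.2% and 48.1% of cells held Plac8. How strongly the genes were linked in lung and in the nodes cannot be compared by this ratio. After thinning to 2000 UMIs the ratios were 1.30 in lung, 6.12 in first-run MLN, 8.14 in medLN and 5.39 in IL-4eGFP+ MLN.

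Most Deptor cells of the nodes also held Plac8. They were 78 of 90 Deptor cells (86.7%) in MLN 1 and 23 of 38 (60.5%) in MLN 2 of the first run. In IL-4eGFP+ MLN they were 45 of 52 (86.5%) and 80 of 99 (80.8%), and in medLN 10 of 12 (83.3%) and 14 of 19 (73.7%). Lung gave 21 of 29 and 2 of 7 (72.4% and 28.6%), where 57.2% and 48.1% of all lung cells held Plac8. The pooled ratio of Plac8 and Deptor was 8.38 in first-run MLN, 10.4 in medLN, 6.07 in IL-4eGFP+ MLN and 1.15 in lung, where its ceiling was again lower.

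Lgmn and St3gal6 had the lowest ratio in the nodes, at 2.24 in first-run MLN, 1.73 in medLN and 2.37 in IL-4eGFP+ MLN. In lung it was 1.35. Lgmn was the member found in most node cells, so the ceiling of its pairs was lower there. How strongly different pairs were linked cannot be compared by this ratio. Cells with all 5 members numbered 23 in MLN 1 and 8 in MLN 2 of the first run, 7 and 13 in IL-4eGFP+ MLN, 0 and 2 in medLN and 1 and 1 in lung, while independent detection would give 0.0125 in MLN 1. At these depths a rare transcript such as Deptor is missed in many cells, so the counts are of cells with a UMI of all 5 and not of cells that express them. After thinning, cells with at least 3 members numbered 59 in MLN 1 against 3.07 expected and 40 in Lung 1 against 24.5.

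**Figure D4:**
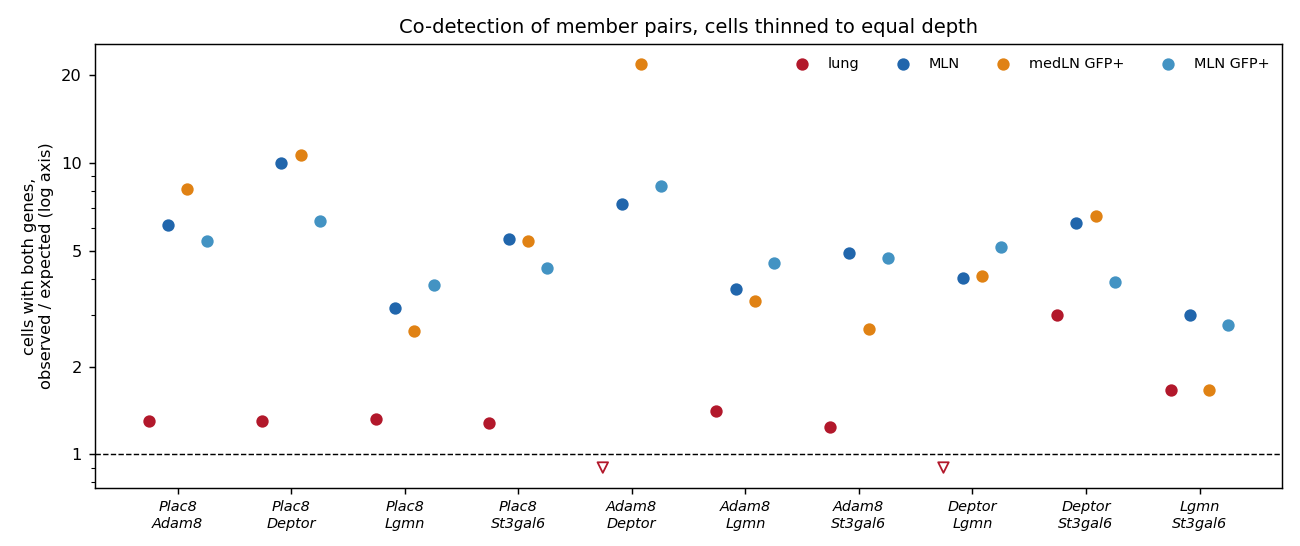
Observed over expected cells with UMIs of both genes (vertical axis, log scale) for the 10 pairs of members in cells thinned to 2000 UMIs, in lung, first-run MLN, IL-4eGFP+ medLN and IL-4eGFP+ MLN, with an open triangle where 0 cells were seen. For Plac8 with Adam8 the ratio is 6.12 in first-run MLN, 8.14 in medLN, 5.39 in IL-4eGFP+ MLN and 1.30 in lung. The highest ratio possible for pairs with Plac8 is lower in lung, where more cells held Plac8.

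Il13+ cells, which carry the effector cytokine IL-13, held more Plac8 than the other cells in all 8 lung, MLN and IL-4eGFP+ node samples. Plac8 measured 949 against 693 and 589 against 503 CPM in lung, and 779.5 against 133 and 879.7 against 95.9 CPM in first-run MLN. In medLN it measured 299 against 105 and 324 against 80.9 CPM, and in IL-4eGFP+ MLN 1498 against 180.0 and 1242 against 239.8 CPM. These are descriptions of 10 to 318 cells a sample. St3gal6 went the other way in lung, at 32.8 against 68.2 and 44.5 against 90.8 CPM. Cells with a UMI of Zbtb16, the innate-like T cell factor PLZF, held 484 against 139.9 and 290.3 against 110.1 CPM of Plac8 in first-run MLN and 353 against 204 and 561 against 317 CPM in IL-4eGFP+ MLN, in 14 to 45 cells. In lung they were 3 and 7 cells with 1 Plac8 UMI per library, or 52.3 against 777 and 21.5 against 532 CPM. The Zbtb16+ cells of first-run MLN held 1 and 2 UMIs of Adam8, 3 and 0 of Lgmn and 0 and 1 of Deptor. Those of IL-4eGFP+ MLN held no UMI of these genes, while St3gal6 was higher than in the other cells in all of these MLN samples. In IL-4eGFP- samples, regulatory T cells with a Foxp3 UMI held 20.7 to 27.6 CPM of Lgmn, against 5.41 to 9.33 CPM in the others. Cycling lung cells with a Mki67 UMI had a lower Plac8 level, at 413 against 875 and 325 against 586 CPM. These cells were deeper, with medians of 10855 and 10204 against 6649 and 5400 UMIs. A Plac8 UMI was present in 50.3% against 58.3% and 47.5% against 48.2% of cells. The nodes went both ways, at 155 against 145 and 111 against 113 CPM in first-run MLN. In the second run IL-4eGFP+ medLN gave 128 against 112 and 92.1 against 95.4 CPM, and IL-4eGFP+ MLN 185 against 215 and 331 against 310 CPM.

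Genes that work with the members were read from lists chosen with earlier results known. In IL-4eGFP+ cells with an Il1rl1 UMI, 3 of 21 rose and 2 fell among mTOR genes, 7 of 21 rose and 5 fell among sialylation and selectin ligand genes, 2 of 9 rose and 2 fell among ADAM proteases and their substrates, and 10 of 25 rose and 5 fell among lysosomal genes, beside 24.9% called of all genes. Sesn3, a stress inducible inhibitor of mTOR complex 1, gave -1.56 and Eif4ebp1, a target of mTOR, 0.87. Selplg, the P-selectin ligand, gave 1.15, whereas St8sia1, another sialyltransferase gene, gave -1.02. Gm2a, a lysosomal lipid activator, gave 1.62 and the cathepsins Ctsd and Ctsc 1.30 and 1.14, while Ctss gave -1.12. The median log2 difference was 0.08 for the mTOR list and 0.18 for the lysosomal list, against -0.02 over all genes.

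Between medLN and MLN of IL-4eGFP+ cells few genes of these lists passed the threshold. Of the mTOR genes 1 of 21 rose and 0 fell, 2 of 21 rose and 0 fell among sialylation genes, 1 of 12 rose and 0 fell among ADAM genes and 0 of 25 rose and 1 fell among lysosomal genes, beside 1.28% of all genes. Effector Th2 genes, in part named by the study from these libraries and so no independent evidence of direction, were called in both directions (4 of 27 rose and 4 fell), with Ccr9 at -2.78, Lztfl1 at -1.92, S100a4 at 1.61 and Id2 at 0.56. Among lymph node genes 2 of 16 rose and 3 fell, with the homing receptor gene Ccr7 at 0.71. In the Il1rl1 comparison 24 of 26 rose and 1 fell of the effector list and 1 of 16 rose and 14 fell of the lymph node list.

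Between lung and first-run MLN, 12 of 21 rose and 4 fell of the sialylation list (median 0.79, all genes -0.005), beside 31% called of all genes. The sialyltransferase genes St6galnac3 and St3gal4 gave 2.12 and 1.52, and Cd44, an adhesion receptor, 1.58. Of the mTOR list 4 of 20 rose and 3 fell, with Eif4ebp1 at 1.24, of the ADAM list 5 of 10 rose and 0 fell, and of the lysosomal list 6 of 23 rose and 6 fell, with the cathepsin Ctsw at 1.97. Of the effector list 22 of 27 rose and 1 fell and of the lymph node list 3 of 16 rose and 12 fell. Cells with a Ccr9 UMI in the second run were compared with the other cells, and of the lysosomal list 7 of 25 rose and 0 fell, with Ctsw at 1.35 and Gm2a at 1.13, beside 5% called.

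The genes with profiles most like each member were found by the root mean square difference of log2(CPM + 1), centred within each run, over the 12 samples and 5184 genes. For Plac8 they were Cysltr1 (0.485), Cxcr6 (0.539) and Ifitm2 (0.691), against a median of 1.89 over all genes, and for Adam8 Ptpn13 (0.444), Mns1 (0.489) and Lgals1 (0.493), against 1.41. For Deptor they were Ccr9 (0.571), P2rx7 (0.584) and Plcb4 (0.597), against 1.14, and for Lgmn Cks2 (0.352), Podnl1 (0.365) and S100a11 (0.371), against 1.10. St3gal6 was nearest to Hmgcs1 (0.366) and Cyp51 (0.381), genes of cholesterol synthesis, against a median of 0.569 that was the smallest of the 5. Among the members themselves Adam8 and Lgmn were closest, at 0.48, and Plac8 and St3gal6 farthest apart, at 1.62.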

How the data were processed

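The 10x 5' libraries were aligned to mm10 (GRCm38) with Cell Ranger, and the submitters' processing notes name versions 2.1.1 and 3.0.1 for the lung and MLN run and 6.1.2 for the medLN and MLN run. The deposited matrices hold UMI counts per gene and cell, which the authors had not normalized, and the hashtag counts of the second run. Each first-run library had been sequenced in 2 runs that the authors combined. A cell was kept if it held more than 500 UMIs and more than 500 genes, less than 7% of its UMIs were mitochondrial and its novelty score exceeded 0.8, and in the first run alone it also needed a TCR alpha and a beta chain. No measured column was left out. Hashtags were called with HTODemux in Seurat 5.3.0 (R 4.3.3), which removed hashtag doublets. Doublets within a hashtag and in the first run were not removed, and their part in co-detection was not tested.

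Counts were summed per library or hashtag sample, which were the replicates, and expressed as CPM. TCR segment and constant genes were left out of the fits. Sums were compared with the quasi-likelihood test of edgeR 4.0.16 (filterByExpr, TMM, Benjamini-Hochberg adjustment over all genes tested, threshold 0.05), and DESeq2 1.42.0, other filters, thinning, marker-bearing cells left out, samples left out and a block were tried. With Ighm used as a marker, leaving out marker-bearing cells removed 42.1% and 43.5% of lung and 63.1% and 66.3% of first-run MLN cells. In IL-4eGFP+ medLN it removed 37.2% and 41.4% of cells. Comparisons of cells with and without a receptor UMI had the hashtag sample as a block and left that receptor out. In single cells, free RNA can give UMIs in cells that do not express a gene, and the IL-4eGFP- samples, a library of their own, give no such background for the other libraries. Cxcr5+ cells of the same library were read as an upper limit of it for Plac8, Adam8 and Deptor. With 2 samples per group, p-values of the organ and node comparisons measure the spread between the mice sampled. In the gate and receptor comparisons, medLN and MLN of the same 2 mice counted as separate samples. Those p-values measure the spread between sums of the same mice and libraries. Same-numbered samples came from the same mouse, and the correlation of their deviations from the group means was 0.0829 in lung and MLN (5678 genes), 0.32 in IL-4eGFP+ nodes (6069 genes) and 0.04 in IL-4eGFP- nodes (5572 genes). Tests recovered 74% to 100% of 200 genes changed by 2 on the log2 scale in simulated counts for the 11 comparisons. The changed genes had a level of 20 CPM or more, and all genes had the same dispersion, with no mouse or library effect. This rate does not cover rarer genes such as Deptor or smaller changes.

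The 5 members and all gene lists were chosen with earlier results of these data known. From each list at most 4 genes past the threshold were named, those with the largest absolute log2 difference where the mean level was 20 CPM or more, and for each member the 3 most similar profiles (pseudocount 1), and 2 genes that these rules pick are not reported here. Gene positions come from the mm10 annotation and promoter stretches from RefSeq.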

Additional observations from a re-analysis of the deposited data

Results flagged for a closer look

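The receptor comparisons of 2 members differed between medLN and MLN by an interaction test chosen after seeing the data. For Lgmn the Il1rl1 difference was lower in medLN by a log2 value of -1.53 and the Cxcr5 difference was higher by 1.55. For Plac8 the Ccr9 difference was higher in medLN by 1.25 and the Cxcr5 difference was lower by -1.82. In 16 sets of 4 per-sample differences of the members, no sample stood apart from the other 3.

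First-run barcodes without both TCR chains were left out of the comparisons. In them a Plac8 UMI was present in 56.6% of 523 barcodes in Lung 1, 50.5% of 208 in Lung 2, 16.7% of 348 in MLN 1 and 15.9% of 145 in MLN 2. Cd3e UMIs were present in 76.4% to 82.8% of these barcodes.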

How the results depend on the processing

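Among single-gene values, 465 counted as unchanged under an alternative, 28 lost the call, 8 gained it, 11 reversed and 14 moved. Unchanged meant the same direction and side of the threshold, which includes values that were called in neither fit. For lung minus MLN, where members had no test, it meant a shift smaller than the SE, and moved meant a larger shift. For lung minus MLN the number of genes called was 1833 with DESeq2 and 631 with Il1rl1+ cells only, and 1918 to 3673 with 1 library left out. Over Il1rl1+ cells only, Plac8 was -0.091, Adam8 -0.20, Lgmn -1.45 and St3gal6 -1.87. For IL-4eGFP+ nodes the count was 47 without the filter, 425 without Ccr9+ cells and 85 with Il1rl1+ cells only, and 13 to 166 with 1 sample left out, and Plac8 and Deptor lost their calls without the filter (edgeR adjusted p = 0.0798 and 0.0907). For IL-4eGFP- nodes it was 2 without the filter, 4 without cells with a marker UMI, 11 with Ighm not used as a marker, 65 with mouse as a block, 5 with all 8 samples fitted, 6 without Foxp3+ cells and 98 to 194 with 1 sample left out. There Plac8 was -0.51 with Ighm not used, and Lgmn was -0.03 without medLN 2, -0.22 without MLN 1, -0.080 without cells with a marker UMI, -0.023 with Ighm not used and -0.019 without Foxp3+ cells, and St3gal6 0.020 without MLN 1; without MLN 2 they were 0.53 and -0.39. For the node by gate test it was 37 with DESeq2, 68 without the filter, 3 without cells with a marker UMI, 44 with mouse as a block and 4 to 13 with 1 sample left out. For the gate it was 6591 to 6890 with 1 sample left out. The Il1rl1 comparison called 1692 genes with DESeq2 and 692 with thinned cells, and 2039 to 2319 with 1 sample left out. The Ccr9 comparison called 341 with DESeq2, 823 without the filter, 195 without cells with a marker UMI, 323 thinned and 229 to 702 with 1 sample left out. The Cxcr5 comparison called 1371 with DESeq2, 1082 thinned and 2063 to 2238 with 1 sample left out. Without the sample block, Lgmn (edgeR adjusted p = 0.144) and St3gal6 (0.0839) lost the Cxcr5 call, Plac8 the difference of that comparison between nodes (0.93) and Lgmn both differences between nodes (0.216 for Il1rl1, 0.631 for Cxcr5). Plac8 with Adam8 co-detection was 1.30 in lung, 6.12 in MLN and 8.14 in medLN with thinned cells, and 5.85 in MLN and 7.26 in medLN without cells with a marker UMI other than Ighm (7.53 in medLN with Ighm used). The share of Il1rl1+ cells with Plac8 was 51.8% in lung, 47.7% in MLN, 28.6% in medLN and 58.5% in IL-4eGFP+ MLN when thinned. Leaving out cells by markers other than Ighm and the interaction tests were chosen after seeing the data. The cause of these changes was not tested.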
